A study of Mus musculus with 3 samples.

Results

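The 10 genes described here encode B-type regulatory subunits of protein phosphatase 2A (PP2A), and they were taken by symbol from a table of 23421 gene symbols. They fall into 3 classes, with *Ppp2r2a*, *Ppp2r2c* and *Ppp2r2d* in class B (B55), *Ppp2r5a*, *Ppp2r5b*, *Ppp2r5c*, *Ppp2r5d* and *Ppp2r5e* in class B′ (B56), and *Ppp2r3a* and *Ppp2r3c* in class B″. All 10 were found in the table, and other genes of these families were not analysed here. RNA was sequenced from mouse embryos of strain 129/SvEv at embryonic day (E) 6.5, in 1 library each of wild type, tw18/+ and tw18/tw18. The strain is that of the labels, while the study proposes that non-inbred backgrounds might explain its variable phenotype. In its in situ hybridizations at E6.5 the study describes mutant embryos as slightly younger. A difference in stage therefore cannot be told apart from genotype in these libraries. The study describes inter-crosses of tw18/+ mice for its in situ embryos. If the wild-type library came from such matings, its embryos also developed in tw18/+ mothers. The tw18 chromosome carries a deletion on Chr 17 that takes out many genes together with *Ppp2r1a*, the gene of the PP2A scaffold PR65α, and a change in these libraries cannot be assigned to 1 of the deleted genes. The study attributes the embryonic lethal phenotype to loss of *Ppp2r1a*, from a knockout and a transgene rescue. Embryos of those experiments are not among these libraries. The labels name the tissue as epiblast, while the study describes the embryo proper, which is epiblast with the visceral endoderm around it. How many embryos went into a library is not given in the sources used here.

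PP2A is a serine/threonine phosphatase made of a scaffold subunit (A), a catalytic subunit (C) and 1 exchangeable B-type subunit that selects the substrates. B55 subunits remove phosphates placed by cyclin-dependent kinases at the exit from mitosis and also act on type I Activin and Nodal receptors. B56 subunits bind short docking motifs in proteins of the kinetochore, of the β-catenin destruction complex and of the p53 pathway. B″ subunits bind calcium through EF hands, and PR72 of this class binds Naked cuticle, an antagonist of WNT signalling. Since B-type proteins assemble on the scaffold, the question put to these libraries was which of their transcripts were present in the embryo at E6.5 and which differed when 1 or both copies of the main scaffold gene were lost.

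With 1 library per genotype no difference has a replicate check, and no p-value is given. Values are in FPKM, fragments scaled to the length of the transcript and the size of the library, which allows levels of different genes to be compared within a library. Ratios are log2 ratios of FPKM without a pseudocount, and intervals in brackets are 95% intervals of counting error only (exact Clopper-Pearson) from estimated fragment numbers. PCR copies count as separate fragments here, so the intervals cover less than the true error. The spacing of low FPKM values put the depth of tw18/+ at 1.41 times, and that of tw18/tw18 at 1.39 times, that of wild type, which was estimated at 14800000 fragments. *Ppp2r1a* itself stood at 146 FPKM in wild type, 81.7 in tw18/+ and 12.8 in tw18/tw18, which is the order of the labels. The 12.8 FPKM in the tw18/tw18 library, about 592 fragments, was not 0, and its source was not tested.

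The tissue was checked with lists of marker genes. In tw18/tw18 against wild type, all 10 epiblast markers were lower (summed FPKM 2237 in wild type, 2413 in tw18/+ and 1155 in tw18/tw18), and none of the 10 was at 0. Over the same pair 9 of 10 visceral endoderm markers, 8 of 8 extra-embryonic ectoderm markers, 6 of 6 stromal markers, 7 of 7 endothelial markers and 6 of 8 decidual markers were higher. The summed FPKM in wild type, tw18/+ and tw18/tw18 was 801, 777 and 989 for visceral endoderm, 103, 107 and 211 for extra-embryonic ectoderm, 60.7, 58.0 and 294 for stroma, and 55.1, 43.9 and 105 for endothelium. The decidual list ran the other way in part, with sums of 1765, 259 and 718, and *Prl8a2*, a decidual prolactin, stood at 1504, 155 and 377. Immune markers summed to 21.4, 12.8 and 32.5, with *C1qa* at 0 in wild type. Erythroid markers summed to 52.5, 56.3 and 177, with *Hbb-y* and *Hba-x*, the embryonic globins, listed at 0 in all 3 libraries. Within this sum *Hba-a1* ran opposite to *Hba-a2*, with 52.2, 27.1 and 0.0070 FPKM against 0.020, 26.9 and 127. How reads were assigned between *Hba-a1* and *Hba-a2* was not tested. The tw18/tw18 library thus differed from the others in the levels of these markers, and their part in the differences given here was not tested. In such bulk RNA, fewer cells of a type and less RNA per cell cannot be told apart.

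The upstream sequences of 2 of the subunit genes are shown here. Whether these sequences bear on the values of the genes was not tested. *Ppp2r2d*, which encodes B55δ, had the lowest log2 ratio of tw18/tw18 to wild type among the 10, and *Ppp2r3a*, which encodes PR130 and PR72, had the highest. The bases are from RefSeq on GRCm38.p6. The protein-coding *Ppp2r2d* transcripts start on the plus strand of Chr 7, head to head with *Mapk1ip1* on the other strand. The 85 bases from the *Mapk1ip1* start in GENCODE to the first of 2 *Ppp2r2d* starts in RefSeq (chr7:138846274-138846358, plus strand) are shown with the cAMP response element word TGACGTCA in capitals.
Ppp2r2d, before the first RefSeq start: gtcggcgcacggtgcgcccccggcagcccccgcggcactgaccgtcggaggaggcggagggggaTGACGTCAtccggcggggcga
The word lay 21 bases before this start and 48 before the other. GENCODE also lists a retained-intron transcript that starts further upstream and covers these bases, and it sets the gene start printed with the values of *Ppp2r2d*. Among the 250 bases before 32841 RefSeq starts of the mouse genome, it was present on either strand in 1.55%. The word is a palindrome and was counted once. The 250 bases before the 2 *Ppp2r2d* starts were rich in CpG, with 28 and 29 against a median of 6 over all windows. The share of 1.55% was not taken among windows of like CpG content.

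*Ppp2r3a* has 2 RefSeq starts on the minus strand of Chr 9. The longer transcript, of 6786 bases, begins at the outer start, and the shorter, of 4461 bases, begins at an inner start within the gene. The 250 bases before each start (outer, chr9:101251833-101252082, and inner, chr9:101199074-101199323, both on the minus strand) are shown with the GC box word GGGCGG in capitals.
Ppp2r3a, outer start: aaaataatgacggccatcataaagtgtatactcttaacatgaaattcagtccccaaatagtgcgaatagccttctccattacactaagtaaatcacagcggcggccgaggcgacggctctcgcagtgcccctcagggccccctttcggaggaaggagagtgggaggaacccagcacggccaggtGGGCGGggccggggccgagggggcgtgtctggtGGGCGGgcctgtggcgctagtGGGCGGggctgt
Ppp2r3a, inner start: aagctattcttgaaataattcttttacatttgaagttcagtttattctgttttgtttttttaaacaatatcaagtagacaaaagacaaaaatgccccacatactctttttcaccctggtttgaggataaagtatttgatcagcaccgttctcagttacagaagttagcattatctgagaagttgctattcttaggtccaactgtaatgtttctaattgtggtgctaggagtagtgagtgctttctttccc
The outer window held 3 GC boxes and 17 CpG dinucleotides at a GC content of 60.4%, against a median of 6 CpG and 52.4% GC over all windows. The inner window held 1 CpG at a GC content of 34.0%, which is at percentile 3.85 of all windows, and none of the words searched. These were GGGCGG (in 32.7% of all windows), CCAAT (33.9%), TATAAA (12.4%) and TGACGTCA, on both strands. The reverse of CCAAT can share its G bases with GGGCGG, and each word was counted by itself. Windows were found for 8 of the 10 genes, and *Ppp2r2a* and *Ppp2r5e* were without an entry. *Ppp2r5d* was the gene with most CCAAT words, 4 in its window, and *Ppp2r5c* the one with most GC boxes, 5. The table gives 1 FPKM for each gene, so the use of the *Ppp2r3a* starts could not be compared between the libraries.

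The genes of class B had the lowest ratios of tw18/tw18 to wild type. *Ppp2r2a* (chr14:67014056-67072444, minus strand) encodes B55α, the B55 subunit best known from mitotic exit, and was measured at 46.0 FPKM in wild type, 46.2 in tw18/+ and 32.0 in tw18/tw18, from about 2624, 3727 and 2537 fragments. Wild type and tw18/+ were at 1 level and tw18/tw18 was below both. The log2 ratio was 0.0072 [-0.065, 0.080] for tw18/+ against wild type and -0.52 [-0.60, -0.44] for tw18/tw18 against wild type. *Ppp2r2a* was the only class B gene at the same level in wild type and tw18/+ within counting error.

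*Ppp2r2d* (chr7:138846079-138883057, plus strand) encodes B55δ, the form that Arpp19 and Ensa inhibit at the entry into mitosis. Its level was 36.2 FPKM in wild type, 28.2 in tw18/+ and 19.6 in tw18/tw18, and it was the only 1 of the 10 genes with its levels in the order wild type, tw18/+, tw18/tw18 from high to low. The log2 ratios to wild type were -0.36 [-0.48, -0.24] in tw18/+ and -0.88 [-1.02, -0.75] in tw18/tw18. Of all genes with a ratio in the latter pair, 8.06% were lower still. *Mapk1ip1*, whose start lies head to head with it, had 5.61, 5.17 and 3.73 FPKM, with a log2 ratio of -0.59 for tw18/tw18 against wild type. The annotated exons of these neighbours overlap by 195 bases on opposite strands, through the retained-intron transcript of *Ppp2r2d*. The libraries were made strand-specific, but whether strand was used in the counting is not given in the sources used here.

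*Ppp2r2c* (chr5:36868513-36955078, plus strand) encodes B55γ, which is known mainly from the brain, and was listed lowest of the 10 in every library. Its FPKM was 2.68 in wild type, 0.849 in tw18/+ and 1.53 in tw18/tw18, from about 156, 70 and 123 fragments. The lowest value was that of tw18/+ and not that of tw18/tw18. The log2 ratio to wild type was -1.66 [-2.09, -1.24] in tw18/+ and -0.81 [-1.16, -0.46] in tw18/tw18. *Prl8a2* and *Prl3c1*, both decidual prolactins, had this same order of libraries, with *Prl3c1* at 121, 13.2 and 25.2 FPKM, while the other 6 of the 8 decidual markers were higher in tw18/tw18 than in wild type. The part of these cells in the *Ppp2r2c* values was not tested.

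The genes of class B′ had log2 ratios of tw18/tw18 to wild type between -0.44 and 0.29, and they included the most abundant gene of the 10. *Ppp2r5d* (chr17:46682991-46705111, minus strand) encodes B56δ and ranked first in every library, with 55.4 FPKM in wild type, 61.4 in tw18/+ and 51.8 in tw18/tw18. It lies on the same chromosome as *Ppp2r1a* (chr17:20945311-20965916) but far from it. Its log2 ratio to wild type was 0.15 [0.072, 0.22] in tw18/+ and -0.098 [-0.18, -0.019] in tw18/tw18, so the level hardly moved. *Mea1*, which overlaps its end by 121 bases on the other strand, was at 56.05, 56.03 and 36.05 FPKM.

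*Ppp2r5c* (chr12:110447120-110583062, plus strand) encodes B56γ, which brings PP2A to p53, and had 43.4, 48.4 and 36.4 FPKM in the same order. *Ppp2r5a* (chr1:191351975-191403272, minus strand) encodes B56α, a subunit that acts on Myc, and had 17.3, 18.6 and 12.8 FPKM. Both were highest in tw18/+ and lowest in tw18/tw18, as *Ppp2r5d* was. For tw18/tw18 against wild type the log2 ratio was -0.25 [-0.37, -0.14] for *Ppp2r5c* and -0.44 [-0.58, -0.29] for *Ppp2r5a*.

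*Ppp2r5e* (chr12:75450881-75596245, minus strand) encodes B56ε and was the steadiest of the 10, with 10.04 FPKM in wild type, 11.8 in tw18/+ and 10.5 in tw18/tw18. Its log2 ratio of 0.061 [-0.080, 0.20] for tw18/tw18 against wild type was the only 1 of 10 in that pair whose counting interval held 0. *Ppp2r5b* (chr19:6227765-6235872, minus strand) encodes B56β and had 8.08 FPKM in wild type, 5.86 in tw18/+ and 9.88 in tw18/tw18. No other gene of its class was lowest in tw18/+ and highest in tw18/tw18. Its log2 ratio was -0.46 [-0.69, -0.23] for tw18/+ against wild type, 0.29 [0.086, 0.50] for tw18/tw18 against wild type and 0.75 [0.55, 0.96] for tw18/tw18 against tw18/+.

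Both genes of class B″ were higher in tw18/tw18 than in wild type. *Ppp2r3a* (chr9:101105084-101251795, minus strand), the gene of PR130 and PR72, was at 2.71 FPKM in wild type, 2.33 in tw18/+ and 5.41 in tw18/tw18, from about 173, 210 and 478 fragments. Wild type and tw18/+ were close, with a log2 ratio of -0.22 [-0.52, 0.081], and tw18/tw18 stood above both, at 0.996 [0.74, 1.26] over wild type and 1.21 [0.98, 1.45] over tw18/+. The first of these just missed the threshold of 1. The sums given above for stromal, visceral endoderm, endothelial and immune markers were also lowest in tw18/+ and highest in tw18/tw18. Single markers differed, as 3 of 6 stromal and 3 of 7 endothelial markers were higher in tw18/+ than in wild type. So were 2 of 10 visceral endoderm and 1 of 4 immune markers with a ratio. Of extra-embryonic ectoderm markers 5 of 7 were lower in tw18/+, but their sum was lowest in wild type. The sums of epiblast, decidual and erythroid markers had other orders. The part of these cells in the *Ppp2r3a* values was not tested.

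*Ppp2r3c* (chr12:55278991-55302998, minus strand) encodes G5PR, and was at 11.7 FPKM in wild type, 16.6 in tw18/+ and 14.3 in tw18/tw18. The log2 ratio to wild type was 0.50 [0.37, 0.63] in tw18/+ and 0.29 [0.15, 0.42] in tw18/tw18. These values are uncertain, since 44.6% of the 50-base words of its RefSeq transcript also occur in other genes, among them *Fam177a* and *1700047I17Rik2* with 28.5% each. It further overlaps *1110008L16Rik* on the other strand over 3422 bases, of which 243 are exonic in both. For the other 9 genes the share of such words was 11.4% or less, and no word was shared between any of the 10.

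The libraries of tw18/tw18 and tw18/+, which both carry the deletion, were also compared with each other. The log2 ratio of tw18/tw18 to tw18/+ was -0.53 [-0.60, -0.46] for *Ppp2r2a*, -0.52 [-0.66, -0.39] for *Ppp2r2d* and 0.85 [0.41, 1.29] for *Ppp2r2c*. In class B′ it was -0.54 [-0.68, -0.41] for *Ppp2r5a*, -0.41 [-0.52, -0.31] for *Ppp2r5c*, -0.25 [-0.32, -0.18] for *Ppp2r5d* and -0.17 [-0.29, -0.047] for *Ppp2r5e*. For *Ppp2r3c* it was -0.21 [-0.32, -0.099]. The values of *Ppp2r5d*, *Ppp2r5e* and *Ppp2r3c* turned to 0.00093, 0.077 and 0.036 when the libraries were set to equal FPKM sums, so their direction rests on the scaling.

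**Figure D1:**
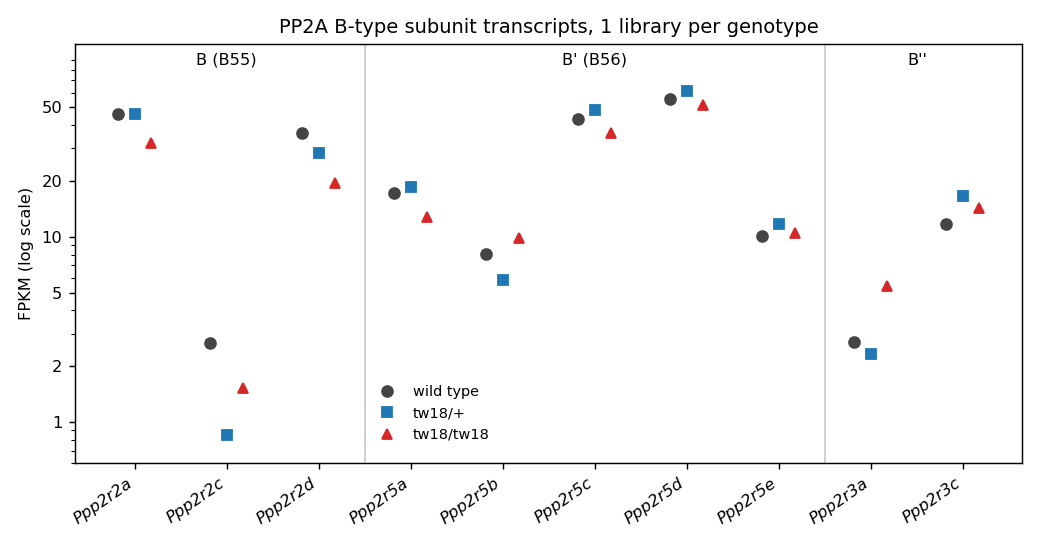
FPKM (log axis) of each of the 10 genes in the 3 libraries, with genes grouped by class and 1 point per library. *Ppp2r2a*, *Ppp2r2d*, *Ppp2r5a*, *Ppp2r5c* and *Ppp2r5d* are lowest in tw18/tw18, while *Ppp2r5b* and *Ppp2r3a* are highest there.

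The order of levels within a library was much the same in all 3. *Ppp2r5d*, *Ppp2r2a*, *Ppp2r5c* and *Ppp2r2d* were the 4 most abundant genes everywhere, and *Ppp2r3a* and *Ppp2r2c* were the last. In wild type the ratio of *Ppp2r2a* to *Ppp2r5c*, its next neighbour, was 1.06 [0.987, 1.14], and that of *Ppp2r3a* to *Ppp2r2c* was 1.01 [0.811, 1.27], so neither pair differed beyond counting error. In tw18/+ *Ppp2r5c* stood above *Ppp2r2a* by 1.05 [0.988, 1.11], and in tw18/tw18 *Ppp2r5e* above *Ppp2r5b* by 1.06 [0.953, 1.18], again within it. All other neighbours in the order of each library differed beyond counting error. Among all genes that reached 1 FPKM in wild type, *Ppp2r5d* was at percentile 88.9, *Ppp2r5e* at 48.5 and *Ppp2r2c* at 15.6.

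Counts of genes past a threshold were read against all genes that reached 1 FPKM in either library of the pair. In tw18/+ against wild type 0 of the 10 were higher by a log2 ratio of 1 (4.7% of 12426 genes) and 1 was lower, *Ppp2r2c* (5.02%). At a log2 ratio of 0.5 the counts were 0 higher (11.7%) and 1 lower (12.3%). In tw18/tw18 against wild type 0 were higher (15.1% of 12917 genes) and 0 lower (6.94%) by 1, and at 0.5 there were 1 higher (26.7%), *Ppp2r3a*, and 3 lower (19.5%), which were the 3 genes of class B. In tw18/tw18 against tw18/+ 1 was higher by 1 (14.9% of 12846 genes), *Ppp2r3a*, and 0 lower (5.65%), and at 0.5 there were 3 higher (27.1%), *Ppp2r2c*, *Ppp2r5b* and *Ppp2r3a*, and 3 lower (19.3%), *Ppp2r2a*, *Ppp2r2d* and *Ppp2r5a*. With 10 genes these counts are near what the same share of all genes would give. The comparisons share libraries, so a low or high value in 1 library enters more than 1 of them.

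The median log2 ratio of the 10 genes was 0.057 for tw18/+ against wild type, -0.18 for tw18/tw18 against wild type and -0.23 for tw18/tw18 against tw18/+. Over all genes with a ratio the medians were 0.0021, -0.016 and 0.0033. The middle portion of all genes, from the lower to the upper quartile, ran from -0.23 to 0.23 in the first pair and from -0.39 to 0.52 in the second. The tw18/tw18 library had a lower FPKM sum than the others, 383409 against 444064 in wild type and 455078 in tw18/+, and *Lars2*, at 11199 and 9689 FPKM in wild type and tw18/+, was listed at 0 in it. Rescaling the libraries to equal sums raised every log2 ratio of tw18/tw18 to wild type by 0.21 and to tw18/+ by 0.25. Among all genes this took the numbers past 1 for tw18/tw18 against wild type from 1946 higher and 896 lower to 2667 and 631, and against tw18/+ from 1910 and 726 to 2700 and 466. Under that rescaling the 3 genes of class B stayed below wild type in tw18/tw18, *Ppp2r5a* went from -0.44 to -0.22, *Ppp2r5c* from -0.25 to -0.043, and *Ppp2r5d* turned from -0.098 to 0.11.

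**Figure D2:**
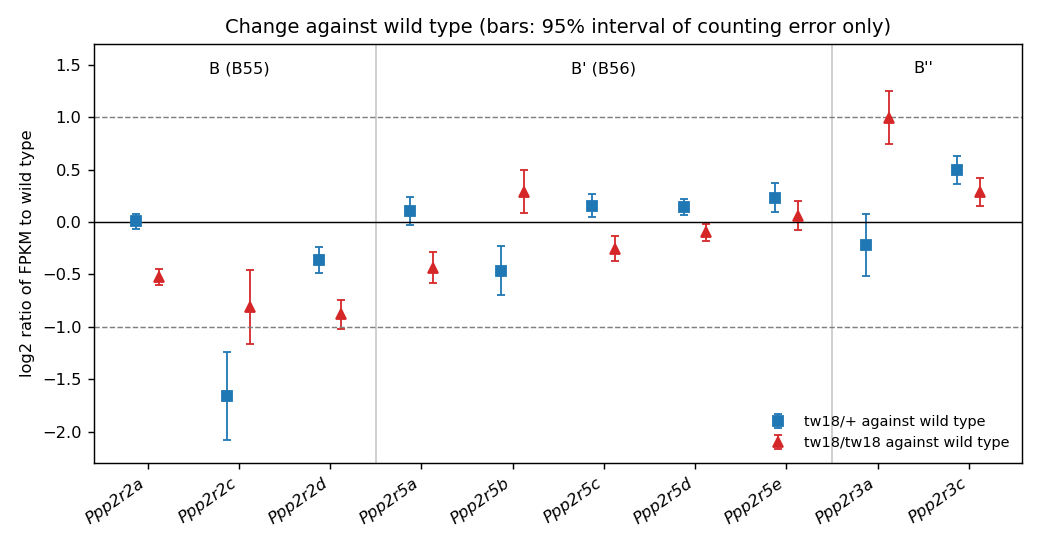
Log2 ratio of FPKM to wild type for each of the 10 genes in tw18/+ (squares) and tw18/tw18 (triangles), with 95% intervals of counting error only and dashed lines at 1 and -1. *Ppp2r2c* in tw18/+ lies past -1, the 3 class B genes lie below 0 in tw18/tw18, and *Ppp2r3a* in tw18/tw18 lies at the line of 1.

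**Figure D3:**
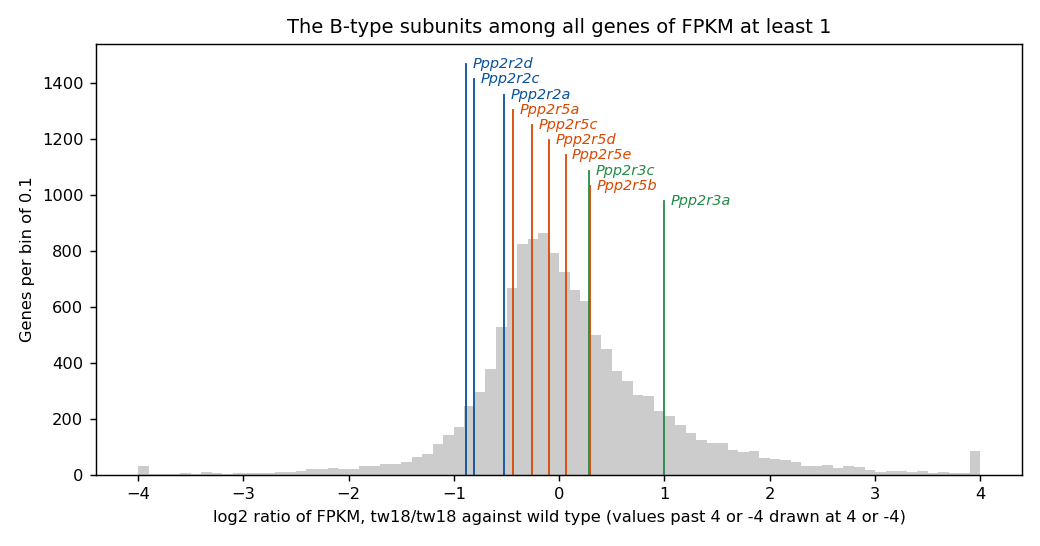
Number of genes per bin of 0.1 by log2 ratio of tw18/tw18 against wild type, over genes that reached 1 FPKM in either library and with values past 4 or -4 drawn at the ends. Vertical lines mark the 10 genes (blue B, orange B′, green B″), which run from -0.88 for *Ppp2r2d* to 0.996 for *Ppp2r3a*. Line heights carry no value.

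The balance between the classes was read inside each library, where no rescaling of a library can change it. Class B held 36.3% of the summed FPKM of the 10 genes in wild type, 31.3% in tw18/+ and 27.4% in tw18/tw18. Class B′ held 57.5%, 60.8% and 62.5%, and class B″ held 6.19%, 7.87% and 10.2%. The ratio of class B to class B′ was 0.632 [0.606, 0.659] in wild type, 0.516 [0.497, 0.534] in tw18/+ and 0.438 [0.421, 0.457] in tw18/tw18. These intervals did not overlap, but they hold counting error only and no variation between embryos or libraries, with 1 library per genotype. The ratio of class B″ to class B was 0.170 [0.158, 0.183], 0.251 [0.237, 0.266] and 0.371 [0.349, 0.393]. Thus the share of B55 transcripts was lower, and that of B56 transcripts higher, in tw18/+ than in wild type and further so in tw18/tw18. The summed FPKM of class B′ itself was 134, 146 and 121 as deposited, so its level was not higher in tw18/tw18 than in wild type. From tw18/+ to tw18/tw18 *Ppp2r5a* went from 7.75% to 6.58% and *Ppp2r5c* from 20.1% to 18.7%, while the other genes of class B′ held more. The part of cell types in these shares was not tested. The higher B″ share in tw18/+ than in wild type came from *Ppp2r3c*, whose values are uncertain, with 5.02%, 6.90% and 7.37% in the order of the deleted copies, while *Ppp2r3a* held 1.16%, 0.971% and 2.78%.

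Within class B the weight lay on a pair of genes. *Ppp2r2a* held 19.7%, 19.2% and 16.5% of the sum of the 10 in wild type, tw18/+ and tw18/tw18, and *Ppp2r2d* held 15.5%, 11.8% and 10.1%, the widest range of any of the 10. The ratio of *Ppp2r2a* to *Ppp2r2d* was 1.27 [1.18, 1.37] in wild type, 1.64 [1.53, 1.75] in tw18/+ and 1.63 [1.5, 1.77] in tw18/tw18. It was the same in both libraries with a deleted copy, within counting error, and higher than in wild type. In class B′ *Ppp2r5d* went from 23.7% to 25.6% and 26.7%, and *Ppp2r5b* went from 3.46% to 2.44% and 5.09%.

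**Figure D4:**
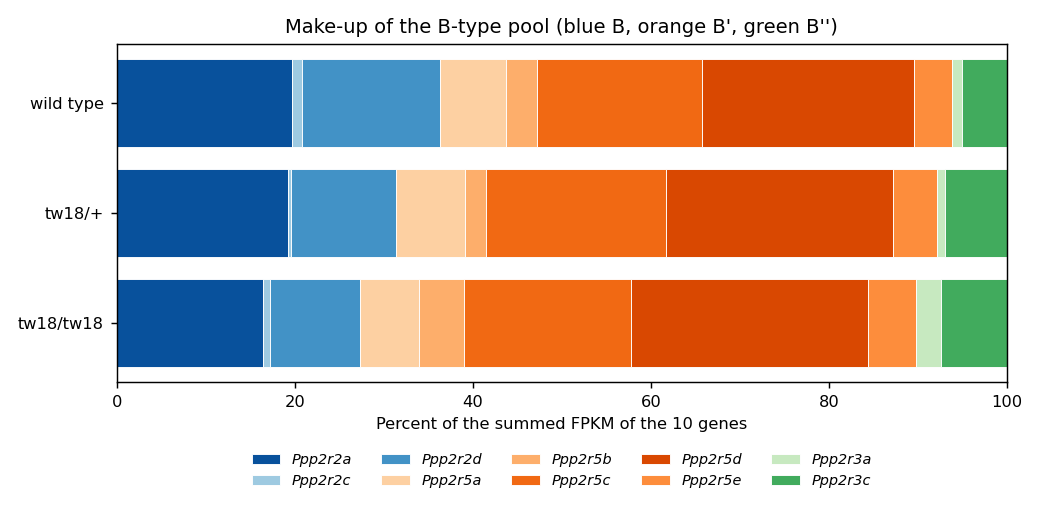
Percent of the summed FPKM of the 10 genes held by each gene in each library, stacked by class (blue B, orange B′, green B″). The blue part narrows from 36.3% in wild type to 31.3% in tw18/+ and 27.4% in tw18/tw18.

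Summed over the 10 genes, B-type transcripts changed little beside the scaffold. The sum was 234 FPKM in wild type, 240 in tw18/+ and 194 in tw18/tw18, with log2 ratios to wild type of 0.041 and -0.27. By class, the log2 ratio of the summed FPKM in tw18/+ against wild type was -0.17 for B, 0.12 for B′ and 0.39 for B″. In tw18/tw18 against wild type it was -0.67 for B, -0.15 for B′ (0.066 with equal FPKM sums) and 0.45 for B″, and in tw18/tw18 against tw18/+ it was -0.50, -0.27 and 0.061. Without *Ppp2r3c*, whose reads are shared, class B″ is *Ppp2r3a* alone and its log2 ratio in tw18/+ against wild type turns to -0.22.

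The core enzyme gives the scale for these sums. *Ppp2r1b*, the gene of the second scaffold PR65β, had 30.4, 30.3 and 24.4 FPKM, and its log2 ratio was -0.32 for tw18/tw18 against wild type. *Ppp2ca* and *Ppp2cb*, the genes of the catalytic subunits, had 167, 162 and 127 FPKM and 49.2, 48.0 and 36.9 FPKM, with log2 ratios of -0.40 and -0.41. *Ppp2r1a* made up 82.8% of the summed scaffold FPKM in wild type, 73.0% in tw18/+ and 34.3% in tw18/tw18. Per unit of summed scaffold FPKM, the B-type sum was 1.32 in wild type, 2.14 in tw18/+ and 5.23 in tw18/tw18. The 34.3% and the 5.23 count the 12.8 FPKM of *Ppp2r1a* in tw18/tw18, where both copies are deleted and the source was not tested. Per unit of catalytic FPKM it was 1.08, 1.14 and 1.19, and per unit of *Ppp2r1b* 7.67, 7.94 and 7.96. Hence B-type and catalytic transcripts kept nearly the same proportion while the scaffold sum was lower with each deleted copy. These are transcript ratios, and protein was not measured here.

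**Figure D5:**
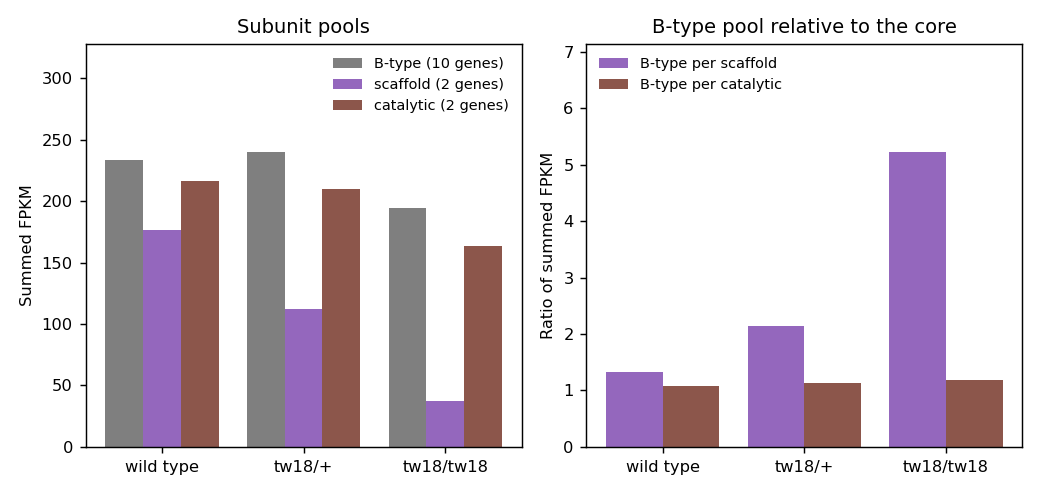
Left, summed FPKM of the 10 B-type genes, the 2 scaffold genes and the 2 catalytic genes in each library. Right, the B-type sum divided by the scaffold sum (1.32, 2.14 and 5.23) and by the catalytic sum (1.08, 1.14 and 1.19).

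Genes that work with the B-type subunits were counted from lists of partners. Of 8 regulators of assembly and of the catalytic subunit, all 8 were lower in tw18/tw18 than in wild type as deposited and 4 with equal FPKM sums, and the list median was -0.44 as deposited. As deposited, 2 of them were lower by a log2 ratio of 1 (6.94% of all genes), and 0 with equal sums. The 2 were *Lcmt1*, the methyltransferase of the catalytic subunit, with 28.3, 23.2 and 13.5 FPKM (log2 ratio -1.07), and *Anp32a*, which encodes a PP2A inhibitor, with 142, 120 and 71.2 FPKM (-1.0). Methylation by Lcmt1 favours the assembly of B55 holoenzymes. All 3 genes of the Mastl pathway, which inhibits B55 in mitosis, were lower than in wild type as deposited and 2 with equal FPKM sums, with a median of -0.24 as deposited and none past 1. The list of 4 receptor genes held *Acvr1b*, *Acvr2a* and *Acvr2b* of Activin and Nodal, and *Tgfbr1*, a TGFβ receptor gene. Of these 4, 3 were higher and 1 was lower, none past 1, with a median of 0.36. The type I receptor genes *Acvr1b* and *Tgfbr1* had log2 ratios of 0.77 and 0.58, and in tw18/+ against wild type 0.48 and 0.68. The type II receptor genes *Acvr2a* and *Acvr2b* had 0.14 and -0.57, and in tw18/+ against wild type -0.53 and -0.14.

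The list for B56 held 9 genes, whose proteins dock to it or belong to the β-catenin pathway. In tw18/tw18 against wild type 4 were higher and 5 lower as deposited, against 7 and 2 with equal sums. None passed 1 as deposited, and the median was -0.034. Of the Naked cuticle genes, the partners of PR72, 1 was higher and 1 lower, and neither passed 1. Of the 3 striatin genes, which encode the B‴ class, 2 were higher and 1 lower as deposited and 3 were higher with equal sums, none past 1 as deposited, with a median of 0.14. In tw18/+ against wild type none of these partner genes passed 1 in either direction. In tw18/tw18 against tw18/+ *Nkd2*, with 1.96, 0.998 and 3.04 FPKM and a log2 ratio of 1.61, was the only one past 1, and it is named after its value was seen. The median over all genes in tw18/tw18 against wild type, -0.016, is the value beside which these medians stand, and a rescaling to equal sums adds the 0.21 given above to each of them.

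For the most abundant gene of each class, the genes of most similar pattern were sought among 7636 genes that reached 5 FPKM in each of the libraries, by the larger of the differences between their log2 ratios to wild type in tw18/+ and in tw18/tw18. Among the nearest to *Ppp2r2a* were *Hspa4* (141.6, 142.1 and 98.3 FPKM) and *Ddx27* (41.1, 41.2 and 28.7), and 385 genes (5.04%) lay within 0.1 of it. Nearest to *Ppp2r5d* were *Babam1* (36.5, 40.4 and 34.2 FPKM), *2610318N02Rik* and *Mrpl37*, with 389 genes (5.09%) within 0.1. The patterns of both were therefore common ones. Nearest to *Ppp2r3c* were *Cope* (52.6, 73.7 and 63.8 FPKM), *Kdelr3* and *Gas2l3*, with 71 genes (0.93%) within 0.1. With 3 libraries the likeness rests on 2 ratios.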

How the data were processed

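The authors prepared libraries from total RNA with the TotalScript kit, using random hexamers, Actinomycin D and 14 PCR cycles, and sequenced them as 50 bp paired-end reads. Mapping was done with TopHat, on the mm10 (GRCm38) build, and Cuffdiff was used for the FPKM values by the authors, and the deposited table holds these FPKM values as 1 column per genotype. The submitters' processing notes name Bowtie 1.0.0 and Cufflinks 2.2.1. The annotation and the library normalization of Cuffdiff are not given in the sources used here.

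Ratios, sums and shares were computed from the deposited FPKM with Python 3.11.15, pandas 2.3.3, numpy 2.4.6 and scipy 1.17.1, and plots were drawn with matplotlib 3.10.9. A gene entered a count if it reached 1 FPKM in either library of a pair, and thresholds were log2 ratios of 1 and 0.5. A gene at 0 in 1 library of a pair counted as past the threshold if the other value was at least 1, but has no ratio and entered no median. Fragments were estimated from the spacing of the low FPKM values of genes with a single annotated transcript, with 150 bp allowed for the fragment length. Of 175 such values in wild type, 272 in tw18/+ and 220 in tw18/tw18, between 76.8% and 78.9% lay within 0.2 of a whole number, so fragment numbers and intervals are approximate. Positions and transcripts came from GENCODE on GRCm38, and promoter windows of 250 bases from RefSeq on GRCm38.p6. Calls and intervals were tested on simulated Poisson counts, which hold no PCR copies and no variation between embryos. The calls were tested on genes of at least 5 FPKM in wild type, which leaves out *Ppp2r2c* and *Ppp2r3a*.

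The 10 genes, the partner lists and the marker lists were chosen with earlier results of these data known. All 10 genes are named, with the scaffold and catalytic genes, each partner gene past a log2 ratio of 1 in tw18/tw18 against wild type, and the 3 genes of most similar pattern per class, of which 1 is not reported here. Marker genes, neighbouring genes, the receptor genes and *Lars2* are named outside this rule. As alternatives, pseudocounts of 1 and 0.1 were tried, with a higher filter or none, a threshold of 0.5, equal FPKM sums, median centring, equal upper quartiles, class sums without their most abundant gene, and shares by fragments. Equal FPKM sums without *Lars2* were added after seeing the data.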

Additional observations from a re-analysis of the deposited data

How the results depend on the processing

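No paired analysis was possible because each genotype has 1 library and the ratios come from no test. Depth limited the intervals most for *Ppp2r2c* and *Ppp2r3a*, and no alternative turned the sign of a ratio past 1. Among the single-gene ratios, sign changes under an alternative were found for *Ppp2r2a* in tw18/+ against wild type, *Ppp2r5d* in tw18/tw18 against wild type, and *Ppp2r5d*, *Ppp2r5e* and *Ppp2r3c* in tw18/tw18 against tw18/+, in each case with equal FPKM sums. *Ppp2r3a* in tw18/tw18 against wild type passed 1 with equal sums (1.21), median centring (1.04) and equal upper quartiles (1.01). The cause of these moves was the added shift, by construction.

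In tw18/+ against wild type the count of genes lower by 1 became 0 with a filter at an FPKM of 5 or a pseudocount of 1. In tw18/tw18 against wild type the count higher became 1 with equal sums, and with a threshold of 0.5 there were 1 higher and 3 lower. In tw18/tw18 against tw18/+ the count higher became 0 with a pseudocount of 1, 3 with equal sums, and with a threshold of 0.5 there were 3 higher and 3 lower. With equal sums, and with equal sums without *Lars2*, the class log2 ratios in tw18/tw18 against wild type were -0.46 and -0.50 for B, 0.066 and 0.029 for B′, and 0.66 and 0.62 for B″. Against tw18/+ they were -0.25 and -0.29 for B, -0.021 and -0.052 for B′, and 0.31 and 0.28 for B″, with -0.22 for B′ under median centring. Without the most abundant gene of the class, B was -0.42 in tw18/+ against wild type and -0.88 in tw18/tw18 against wild type. Likewise B″ was -0.22 in tw18/+ against wild type, 0.996 in tw18/tw18 against wild type and 1.21 against tw18/+. Shares by fragments instead of FPKM, which weight long transcripts more, were 38.9%, 34.2% and 29.6% for B, 52.2%, 54.6% and 56.04% for B′, and 8.95%, 11.2% and 14.4% for B″ in wild type, tw18/+ and tw18/tw18, in the same order.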
